A study of Mus musculus with 12 samples.

Results

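The genes described here make, break down and sense prostaglandins: the cyclooxygenase genes Ptgs1 and Ptgs2, the prostaglandin E synthase genes Ptges, Ptges2 and Ptges3, the prostaglandin D synthase gene Ptgds, the breakdown enzyme gene Hpgd, and the receptor genes Ptger2, Ptger3 and Ptger4. They were chosen by name as one pathway and matched by gene symbol, and all 10 were found among the 23235 symbols listed for each of 12 RNA sequencing libraries. The libraries came from FVB/NJ mice, 3 in each of 4 groups. In all groups polyA RNA was sequenced.

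Papilloma CWO libraries came from mice shaved at 6 to 7 weeks of age, given 400 nmol of the carcinogen DMBA in 200 µL acetone and then 10 nmol of TPA, a tumour promoter, many times over in 200 µL acetone. Their tumours were treated for 6 weeks with 20% camphor white oil (CWO), a fraction of the essential oil of the camphor tree. Papilloma vehicle libraries came from mice raised in the same way and given acetone in place of the oil. Each papilloma library pooled 4 pre-malignant tumours of similar size from 1 mouse, with 3 mice per treatment. Epidermis CWO libraries came from shaved mice given 400 µL of 20% CWO once and killed 24 h later, with no DMBA or TPA. Epidermis vehicle libraries came from mice given acetone on the same schedule, and in both epidermis groups the epidermis was split from the skin with ammonium thiocyanate. The 3 epidermis samples of each treatment with the best RNA integrity had been sequenced, and the age of those mice is not given in the sources used here. Tissue therefore goes together with DMBA and TPA, with time, and with whole tumours against split epidermis, and these cannot be told apart.

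Prostaglandins are short-lived lipid signals. Cyclooxygenases turn arachidonic acid, freed from membranes by phospholipases A2, into prostaglandin H2, and terminal synthases turn that into prostaglandin E2, prostaglandin D2 and other products. Prostaglandin E2 acts through the receptors EP1 to EP4 on the cell surface, and in mouse skin the inducible cyclooxygenase Ptgs2 and prostaglandin E2 are known for their part in TPA-driven tumour promotion.

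Levels are in FPKM, fragments per kilobase of transcript per mega (M) mapped fragments, as deposited, so that they can be compared between genes per length. Between 11.1 and 24.6 M (mega) fragments per library were recovered from the FPKM values and their intervals, and the low members rest on few of them. All 7 keratinocyte markers were above 0 in every library, with summed levels of 27060 to 36330 FPKM in papilloma CWO, 29090 to 33560 in papilloma vehicle, 26930 to 27960 in epidermis CWO and 22650 to 29260 in epidermis vehicle. Within these similar sums, Krt14 stood at 15370 to 17070 FPKM over the papilloma libraries and 2605 to 5279 FPKM over the epidermis libraries. Krt10 stood at 2061 to 8028 FPKM in papilloma and 9174 to 11630 FPKM in epidermis. Krt5 overlapped between the tissues, at 3074 to 4095 FPKM in papilloma and 2580 to 4138 FPKM in epidermis. Krt1 overlapped too, at 2248 to 6114 FPKM in papilloma and 2051 to 2853 FPKM in epidermis. Epidermis vehicle libraries 1 and 2 stood apart in 7 skeletal muscle markers, whose summed level was 8075 and 13020 FPKM there and 2640 FPKM in epidermis vehicle library 3, against 2144 to 2771 FPKM in epidermis CWO. The members' results that use these libraries, and a count for the other pathway genes, are therefore also given with only library 3 of that group. Epidermis samples are not stated to come from separate mice, so p-values there measure the spread between these samples, which may be technical.

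Members at each step of the pathway differed between papilloma and epidermis, while CWO moved no tested member past the threshold in either tissue. Under vehicle, Ptgs2, Ptges, Ptges3 and Hpgd rose in papilloma relative to epidermis, and Ptgs1, Ptges2, Ptger3, Ptger4 and Ptgds fell. These are 9 of the 9 members that could be tested, 4 higher and 5 lower, against 70.1% of all 12796 genes tested in that comparison, 31.8% higher and 38.3% lower, so a call is the usual outcome here. Among them Ptgs2 and Ptger3 passed the level filter only through the tissue where they were high and so had to differ. The test was limma on log2(FPKM + 1) with a Benjamini-Hochberg adjusted p under 0.05. Of the 10 members, 10 had groups of libraries that did not overlap, 5 higher and 5 lower. Of all genes tested, 74.5% did not overlap either, 33.8% higher and 40.7% lower. Ptger2, 1 of the 5 higher members, was below the level filter and so is not among the genes tested. With CWO on both sides, 3 members rose and 5 fell, against 68.8% of 12696 genes called, 29.1% higher and 39.7% lower. Of these members Ptger3 again passed the level filter through its epidermis libraries alone and so had to differ. Ptgs2 could pass it only with its papilloma libraries, since 1 epidermis CWO library reached 1 FPKM. Under CWO 9 members did not overlap, 4 higher and 5 lower, with the untested Ptger2 again among the higher. Of the genes tested under CWO, 74.0% did not overlap, 31.4% higher and 42.6% lower. The vehicle and CWO comparisons share no library.

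**Figure D1:**
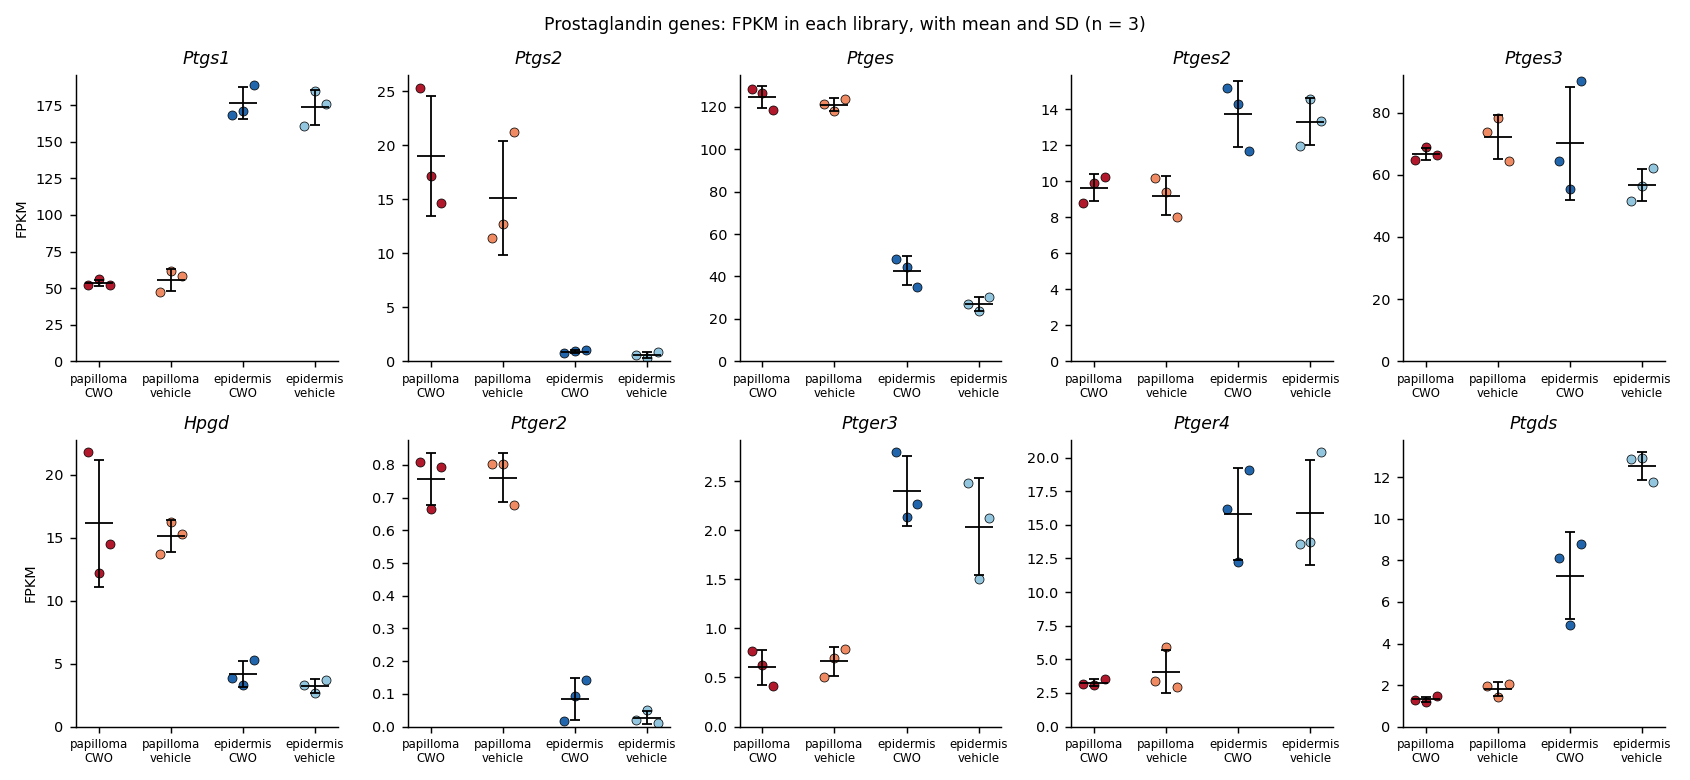
FPKM of each member in each library, 1 panel per gene with its own scale from 0, with points for libraries and a line and bars for the mean and SD of 3 libraries. Papilloma groups stand left of epidermis groups and CWO left of vehicle in each tissue. Ptgs2, Ptges, Hpgd and Ptger2 are higher in all 6 papilloma libraries, Ptgs1, Ptges2, Ptger3, Ptger4 and Ptgds are lower, and Ptges3 overlaps.

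Ptgs1, on chromosome 2 at chr2:36085946-36107789 of mm9, encodes the cyclooxygenase that many tissues express without a stimulus. Its level was 51.8, 56.1 and 52.4 FPKM in papilloma CWO, 47.3, 61.6 and 58.4 FPKM in papilloma vehicle, 169, 171 and 189 FPKM in epidermis CWO and 161, 185 and 176 FPKM in epidermis vehicle. All 6 epidermis libraries lay above all 6 papilloma libraries, and the treatments overlapped within each tissue. Under vehicle the mean was 55.8 ± 7.47 FPKM in papilloma and 174 ± 12.01 FPKM in epidermis (SD, n = 3 each), a log2 fold change of -1.63 (SE 0.118, limma adjusted p = 8.17e-06). Under CWO the log2 fold change was -1.70 (SE 0.0923, limma adjusted p = 1.61e-06).

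Ptgs2, on chromosome 1 at chr1:151947254-151955142, encodes the cyclooxygenase that growth factors, cytokines and TPA induce. Its level was 25.3, 17.2 and 14.7 FPKM in papilloma CWO, 11.4, 12.8 and 21.2 FPKM in papilloma vehicle, 0.730, 0.909 and 1.06 FPKM in epidermis CWO and 0.533, 0.346 and 0.852 FPKM in epidermis vehicle. The gene was low in every epidermis library, where it rested on 15 to 82 fragments, and high in every papilloma library, where it rested on 693 to 2077. Papilloma vehicle averaged 15.1 ± 5.31 FPKM and epidermis vehicle 0.577 ± 0.256 FPKM (SD, n = 3 each), 26.2 times as much, with a log2 fold change of 3.32 (SE 0.231, limma adjusted p = 6.8e-06). Papilloma CWO averaged 19.1 ± 5.56 FPKM and epidermis CWO 0.898 ± 0.163 FPKM (SD, n = 3 each), 21.2 times as much, with a log2 fold change of 3.37 (SE 0.192, limma adjusted p = 2.07e-06). Adding 1 before taking logs understates the change of such a low gene. Under vehicle Ptgs2 passed the level filter through its papilloma libraries alone. Under CWO, epidermis library 3 also reached the filter level, at 1.06 FPKM. The log2 fold change ranked above 98.6% of all genes tested under vehicle.

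Within each library Ptgs1 remained the larger of both cyclooxygenase transcripts. Ptgs2 made up 32.8%, 23.4% and 21.9% of their summed FPKM in papilloma CWO, 19.5%, 17.2% and 26.7% in papilloma vehicle, 0.431%, 0.528% and 0.556% in epidermis CWO and 0.330%, 0.187% and 0.482% in epidermis vehicle. The mean share was 21.1% ± 4.96 in papilloma vehicle and 0.333% ± 0.148 in epidermis vehicle (SD, n = 3 each, exact two-sided permutation p = 0.1, the smallest that 3 against 3 libraries allow). The summed level of both genes was lower in papilloma, at 70.9 ± 10.8 FPKM under vehicle, against 174 ± 11.95 FPKM in epidermis vehicle (SD, n = 3 each).

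**Figure D2:**
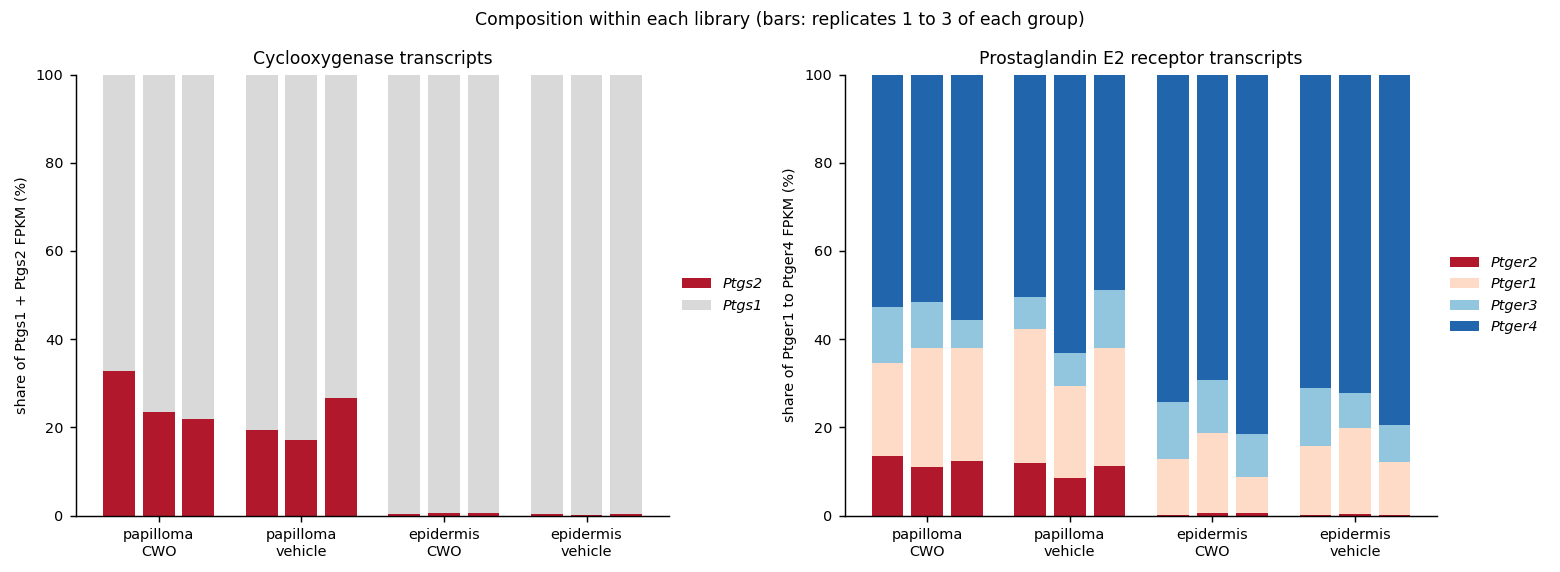
Share in percent of the summed FPKM of both cyclooxygenase genes (left) and of the 4 prostaglandin E2 receptor genes (right), with 1 stacked bar per library and replicates 1 to 3 side by side in each group. Ptgs2 takes 17.2% to 32.8% of the cyclooxygenase bars in papilloma and under 1% in epidermis, and Ptger2 is visible in the papilloma bars, with Ptger4 the largest part of each bar.

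The promoters of both cyclooxygenase genes and of Ptges are shown because these genes differ most in level between the tissues among the enzymes of prostaglandin E2 synthesis. They are the RefSeq windows of 300 bases on GRCm38.p6, from 250 bases before to 50 bases after the listed start, read 5′ to 3′ on the gene's strand. The windows lie at chr1:150099781-150100080 on the plus strand, chr2:36230176-36230475 on the plus strand and chr2:30903248-30903547 on the minus strand, and all 10 members had an entry. Capitals mark matches, on either strand, to 5 motifs: the E-box CACGTG, the cAMP response element core site TGACG, the AP-1 site TGANTCA, the GC box GGGCGG and the TATA element TATAA.
Ptgs2: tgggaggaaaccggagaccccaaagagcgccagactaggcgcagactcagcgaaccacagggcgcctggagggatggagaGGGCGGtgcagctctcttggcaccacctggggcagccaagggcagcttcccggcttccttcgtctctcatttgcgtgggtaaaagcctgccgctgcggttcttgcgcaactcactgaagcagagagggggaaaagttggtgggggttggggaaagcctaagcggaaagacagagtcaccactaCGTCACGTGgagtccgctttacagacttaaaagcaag
Ptgs1: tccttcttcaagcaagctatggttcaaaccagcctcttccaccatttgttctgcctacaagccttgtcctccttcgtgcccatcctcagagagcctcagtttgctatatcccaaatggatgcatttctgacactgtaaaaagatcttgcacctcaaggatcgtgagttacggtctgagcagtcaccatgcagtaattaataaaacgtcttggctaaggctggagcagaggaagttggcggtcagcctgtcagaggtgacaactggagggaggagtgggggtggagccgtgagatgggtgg
Ptges: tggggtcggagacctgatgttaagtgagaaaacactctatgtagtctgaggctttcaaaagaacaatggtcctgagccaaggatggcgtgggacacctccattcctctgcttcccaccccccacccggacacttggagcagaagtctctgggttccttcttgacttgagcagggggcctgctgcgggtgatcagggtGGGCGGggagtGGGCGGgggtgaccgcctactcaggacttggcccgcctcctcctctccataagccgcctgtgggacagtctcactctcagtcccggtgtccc

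Counted from 1 at the listed start, the Ptgs2 window held an E-box at position 17, a core site on the other strand at position 14 that overlaps it, and a GC box at position -170. The Ptges window held GC boxes at positions -53 and -42, and the Ptgs1 window held none of the 5 motifs. Among 32851 promoter windows of this length, 7.15% held the E-box, 20.8% the core site, 7.81% the AP-1 site, 35.7% the GC box and 24.9% the TATA element. Of the 10 members, 2 held an E-box (Ptgs2 and Ptges2), 2 a core site (Ptgs2 and Ptges3), 1 an AP-1 site (Ptgds), 6 a GC box and 1 a TATA element (Hpgd). A match says only that the letters are in the window.

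The terminal synthases moved in different directions. Ptges, on chromosome 2 at chr2:30744991-30758817, encodes the inducible microsomal prostaglandin E synthase that works with Ptgs2. Its level was 129, 127 and 119 FPKM in papilloma CWO, 121, 118 and 124 FPKM in papilloma vehicle, 48.4, 44.7 and 35.2 FPKM in epidermis CWO and 27.0, 23.9 and 30.5 FPKM in epidermis vehicle. The papilloma libraries lay close together and above all epidermis libraries, and within epidermis the CWO libraries lay above the vehicle libraries. The papilloma mean was 4.46 times the epidermis mean under vehicle, 121 ± 3.02 against 27.2 ± 3.32 FPKM (SD, n = 3 each, log2 fold change 2.12, SE 0.104, limma adjusted p = 1.24e-06). Under CWO it was 2.92 times as high, 125 ± 5.32 FPKM in papilloma and 42.7 ± 6.79 FPKM in epidermis (SD, n = 3 each, log2 fold change 1.53, SE 0.127, limma adjusted p = 1.42e-05).

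Ptges2, at chr2:32251410-32258260, encodes a second membrane-bound prostaglandin E synthase. It had 8.81, 9.91 and 10.2 FPKM in papilloma CWO, 10.2, 9.39 and 8.02 FPKM in papilloma vehicle, 15.2, 14.3 and 11.7 FPKM in epidermis CWO and 11.96, 14.6 and 13.4 FPKM in epidermis vehicle. Its tissue difference was small, with a log2 fold change of -0.49 under vehicle (SE 0.125, limma adjusted p = 0.00772) and -0.46 under CWO (SE 0.127, limma adjusted p = 0.0108).

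Ptges3, on chromosome 10 at chr10:127496038-127514310, encodes p23, which is both a cytosolic prostaglandin E synthase and a co-chaperone of Hsp90. It had 64.9, 68.9 and 66.4 FPKM in papilloma CWO, 73.8, 78.5 and 64.6 FPKM in papilloma vehicle, 64.6, 55.4 and 90.4 FPKM in epidermis CWO and 51.7, 56.5 and 62.1 FPKM in epidermis vehicle. Epidermis CWO library 3 was the highest of the 12. Under vehicle Ptges3 rose by 0.34 on the log2 scale (SE 0.109, limma adjusted p = 0.0211). That call was lost without papilloma vehicle library 1 (0.33, adjusted p = 0.0661), without papilloma vehicle library 2 (0.28, adjusted p = 0.0843) and without epidermis vehicle library 1 (0.28, adjusted p = 0.0713). It was also lost with only epidermis vehicle library 3 kept (0.21, adjusted p = 0.238) and in 1 fit of all 12 libraries (adjusted p = 0.0574). Under CWO the log2 fold change was -0.04, with a 95% interval from -0.42 to 0.34 (limma adjusted p = 0.839), and it was 0.08 after median-ratio scaling of the libraries.

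Ptges made up 59.8% ± 2.94 of the summed FPKM of the 3 prostaglandin E synthase genes in papilloma vehicle and 27.9% ± 2.42 in epidermis vehicle (SD, n = 3 each, exact two-sided permutation p = 0.1, the smallest possible). Under CWO the share was 62.0% ± 1.43 in papilloma and 34.2% ± 7.40 in epidermis (SD, n = 3 each, exact two-sided permutation p = 0.1). In epidermis, Ptges3 was thus the most abundant of the 3 transcripts, and in papilloma Ptges was.

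Ptgds, at chr2:25322232-25325269, encodes the lipocalin-type prostaglandin D synthase. Its level was 1.29, 1.20 and 1.46 FPKM in papilloma CWO, 1.97, 1.43 and 2.07 FPKM in papilloma vehicle, 8.14, 4.91 and 8.78 FPKM in epidermis CWO and 12.9, 12.96 and 11.8 FPKM in epidermis vehicle. Epidermis vehicle was highest, epidermis CWO lay below it, and both papilloma groups lay below both, without overlap between tissues. The log2 fold change of papilloma against epidermis was -2.27 under vehicle (SE 0.131, limma adjusted p = 2.57e-06) and -1.81 under CWO (SE 0.192, limma adjusted p = 5.83e-05). In papilloma the gene rested on 12 to 24 fragments per library.

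Hpgd encodes 15-hydroxyprostaglandin dehydrogenase, which inactivates prostaglandin E2, and lies on chromosome 8 at chr8:58773349-58799843. Its level was 21.8, 12.2 and 14.5 FPKM in papilloma CWO, 13.7, 16.3 and 15.3 FPKM in papilloma vehicle, 3.88, 3.32 and 5.28 FPKM in epidermis CWO and 3.31, 2.65 and 3.71 FPKM in epidermis vehicle. All papilloma libraries lay above all epidermis libraries, with papilloma CWO library 1 the highest. The gene rose 4.69-fold under vehicle (log2 fold change 1.94, SE 0.134, limma adjusted p = 6.64e-06) and 3.88-fold under CWO (log2 fold change 1.71, SE 0.221, limma adjusted p = 0.000179). Transcripts of this enzyme, which removes prostaglandin E2, were higher in the same libraries as those of Ptgs2 and Ptges, which help to make it.

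**Figure D3:**
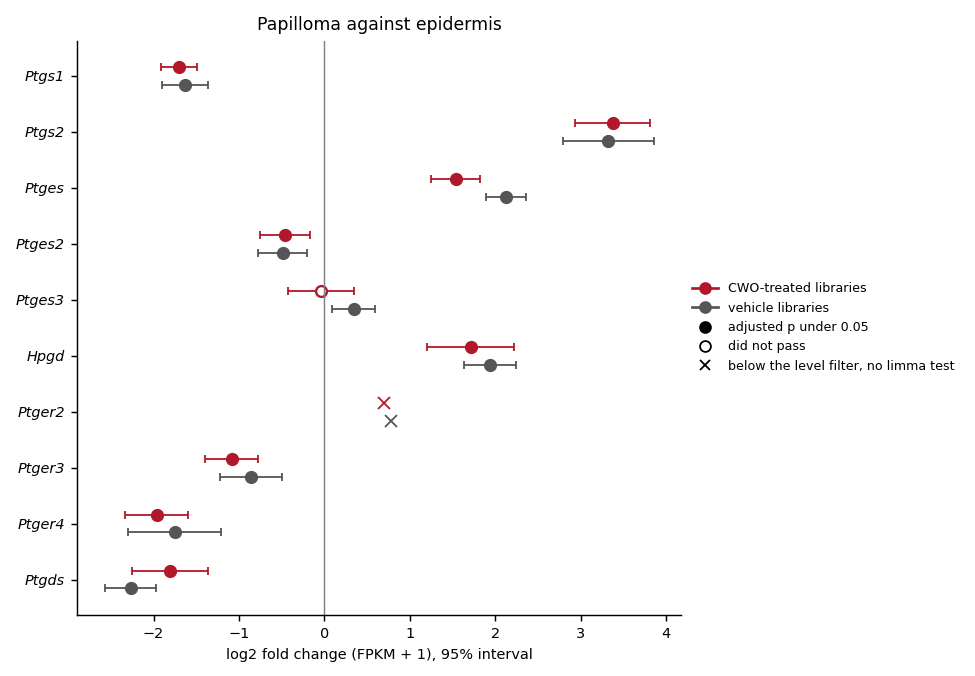
Log2 fold change of papilloma over epidermis on FPKM + 1 for each member (horizontal axis), with its 95% interval, for CWO-treated libraries (upper point) and vehicle libraries (lower point), 3 against 3 in each. Filled points passed an adjusted p of 0.05, open points did not, and crosses were below the level filter. Ptgs2, Ptges and Hpgd lie at 1.53 or above in both, and Ptgs1, Ptger4 and Ptgds at -1.63 or below.

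Among the receptors, Ptger4 on chromosome 15 at chr15:5183404-5193831 encodes EP4, which raises cAMP. It had 3.14, 3.10 and 3.55 FPKM in papilloma CWO, 3.40, 5.89 and 2.96 FPKM in papilloma vehicle, 16.2, 12.3 and 19.1 FPKM in epidermis CWO and 13.6, 13.7 and 20.4 FPKM in epidermis vehicle. It was the most abundant of the 4 prostaglandin E2 receptor transcripts in each group and fell in papilloma, by 1.75 on the log2 scale under vehicle (SE 0.237, limma adjusted p = 0.000248) and by 1.96 under CWO (SE 0.161, limma adjusted p = 1.35e-05). Papilloma vehicle library 2 was the highest papilloma library and still lay below each epidermis library.

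Ptger3, on chromosome 3 at chr3:157229856-157307722, encodes EP3, which mostly lowers cAMP. It had 0.769, 0.623 and 0.415 FPKM in papilloma CWO, 0.503, 0.694 and 0.793 FPKM in papilloma vehicle, 2.80, 2.13 and 2.27 FPKM in epidermis CWO and 2.48, 1.51 and 2.13 FPKM in epidermis vehicle. The tissues did not overlap, and the log2 fold change was -0.86 under vehicle (SE 0.156, limma adjusted p = 0.00131) and -1.09 under CWO (SE 0.134, limma adjusted p = 0.000136). The gene passed the level filter through its epidermis libraries alone and rested on 13 to 29 fragments per papilloma library.

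Ptger2, on chromosome 14 at chr14:45607786-45623495, encodes EP2, a second receptor that raises cAMP. It had 0.809, 0.667 and 0.795 FPKM in papilloma CWO, 0.804, 0.804 and 0.676 FPKM in papilloma vehicle, 0.0158, 0.0928 and 0.142 FPKM in epidermis CWO and 0.0203, 0.0510 and 0.0115 FPKM in epidermis vehicle. The papilloma libraries held 40 to 60 fragments of it and the epidermis libraries 1 to 9, and the tissues did not overlap. Since no library reached 1 FPKM it was tested by itself. The difference on the log2(FPKM + 1) scale was 0.78 under vehicle and 0.70 under CWO (exact two-sided permutation p = 0.1 for each, the smallest possible). In fits of all genes with no filter on low values its limma adjusted p was 5.09e-05 under vehicle and 0.000166 under CWO.

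Together with Ptger1, which encodes EP1 and whose level is uncertain because the reads are not stated to be stranded, the 4 receptor transcripts summed to 6.13 ± 0.232 FPKM in papilloma CWO, 7.38 ± 1.73 in papilloma vehicle, 21.0 ± 2.94 in epidermis CWO and 21.3 ± 3.84 in epidermis vehicle (SD, n = 3 each). Ptger4 made up 54.1% ± 7.81 of that sum in papilloma vehicle and 74.3% ± 4.54 in epidermis vehicle, and Ptger2 made up 10.6% ± 1.73 and 0.140% ± 0.115 of it in these groups (SD, n = 3 each). Under CWO the Ptger4 share was 53.2% ± 2.10 in papilloma and 75.1% ± 6.19 in epidermis, and the Ptger2 share 12.4% ± 1.24 in papilloma and 0.402% ± 0.288 in epidermis (SD, n = 3 each). Neither share overlapped between the tissues (exact two-sided permutation p = 0.1 in each comparison, the smallest possible). The Ptger3 share overlapped between them, at 9.33% ± 3.26 in papilloma vehicle and 9.73% ± 2.84 in epidermis vehicle (SD, n = 3 each).

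With only epidermis vehicle library 3 kept in its group, papilloma against epidermis under vehicle gave Ptgs2 a log2 fold change of 3.07, Ptges 1.95, Hpgd 1.77, Ptgs1 -1.65, Ptgds -2.18, Ptger4 -2.12 and Ptges2 -0.50. Each of these 7 still passed, with limma adjusted p of 6.92e-05 to 0.0374, on the assumption that the lone library varies like the other group, and Ptger3 fell below the level filter there. Scaling mattered little for these members. The median log2 fold change of all genes was -0.07 under vehicle and -0.12 under CWO, and median-ratio scaling of the libraries moved the second to -0.01.

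Other cell types differed between the tissues too. Summed over 6 markers, all above 0 in each library, fibroblast genes stood at 363 to 558 FPKM in papilloma CWO and 335 to 493 in papilloma vehicle, against 11.8 to 23.4 in epidermis CWO and 28.2 to 68.7 in epidermis vehicle. The 7 mast cell markers stood at 31.1 to 53.5 and 26.7 to 37.0 FPKM in papilloma CWO and vehicle, against 3.03 to 3.33 in epidermis CWO, where Tpsab1 was at 0, and 2.56 to 9.17 in epidermis vehicle. Summed neutrophil, endothelial and proliferation markers were likewise higher in each papilloma library. The neutrophil markers were not uniform. Csf3r stood at 2.17 to 4.03 FPKM over the papilloma libraries and 0.0121 to 0.134 FPKM over the epidermis libraries. Mpo went the other way, at 0.0278 to 0.1315 FPKM in papilloma and 0.155 to 1.74 FPKM in epidermis. Hair follicle markers stood at 62.3 to 567 FPKM over the papilloma libraries and 0.115 to 27.4 FPKM over the epidermis libraries. Macrophage markers overlapped under vehicle and were higher under CWO, at 95.5 to 107 FPKM in papilloma CWO and 63.3 to 87.8 FPKM in epidermis CWO, although Csf1r alone was lower, at 8.31 to 11.1 FPKM over the papilloma libraries and 21.8 to 29.3 FPKM over the epidermis libraries. Skeletal muscle markers were lower in each papilloma library, at 0.422 to 263 FPKM, against 2144 to 13020 FPKM over the epidermis libraries. Langerhans and dendritic cell markers were lower, at 241 to 262 and 247 to 307 FPKM in papilloma CWO and vehicle, against 1488 to 1795 and 1466 to 1642 in epidermis CWO and vehicle. T cell markers were also lower, at 18.6 to 22.7 FPKM in papilloma CWO and 19.5 to 27.9 in papilloma vehicle, against 204 to 239 in epidermis CWO and 212 to 250 in epidermis vehicle. Sebaceous gland markers stood at 36.8 to 113 FPKM over the papilloma libraries and 695 to 888 FPKM over the epidermis libraries. The 4 adipocyte markers summed to 4268 to 5210 FPKM over the papilloma and 44.1 to 400 FPKM over the epidermis libraries. All 4 were above 0 in every epidermis library, but only 3 were so in every library of each papilloma group. The higher adipocyte sum therefore does not hold for each marker and does not by itself show more adipocytes. The part of these cells in the members' differences was not tested, and in such bulk samples fewer cells of a type and less RNA per cell cannot be told apart.

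CWO was compared with vehicle in epidermis at 24 h and in papilloma after 6 weeks. In epidermis 0 of the 8 members tested passed, against 2.00% of 12294 genes called, and 2 of the 8 had an unadjusted limma p under 0.05, against 14.7% of all genes. Limma-voom on recovered fragments called 0 of them as well. Those nearest to the threshold were Ptges and Ptgds, the 2 members whose groups did not overlap in epidermis, where 18.8% of all genes did not overlap.

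Ptges averaged 42.7 ± 6.79 FPKM in epidermis CWO and 27.2 ± 3.32 FPKM in epidermis vehicle (SD, n = 3 each), with each CWO library above each vehicle library. The log2 fold change was 0.63, with a 95% interval from 0.29 to 0.97 (limma adjusted p = 0.0802). It passed without epidermis vehicle library 3 (0.72, adjusted p = 0.0363), without epidermis CWO library 3 (0.76, adjusted p = 0.0340) and when all 12 libraries shared 1 fit (adjusted p = 0.00899). With only epidermis vehicle library 3 kept it was 0.46 (adjusted p = 0.901), and with the muscle marker level as a covariate 0.43 (adjusted p = 0.787). Over all alternatives the adjusted p ranged from 0.00899 to 0.901. In the same libraries proliferation markers summed to 72.1 to 99.5 FPKM in epidermis CWO, against 20.8 to 38.9 in epidermis vehicle, and neutrophil markers to 2.20 to 4.60 FPKM, against 0.777 to 1.42. Among the neutrophil markers Mpo stood at 1.06 to 1.74 FPKM in epidermis CWO and 0.155 to 0.621 FPKM in epidermis vehicle, while Csf3r overlapped, at 0.0166 to 0.118 FPKM in epidermis CWO and 0.0121 to 0.134 FPKM in epidermis vehicle. Sebaceous gland markers were also higher, at 812 to 888 FPKM in epidermis CWO and 695 to 737 FPKM in epidermis vehicle. The dendritic cell gene Ccr7 was higher too, at 2.32 to 4.18 and 0.720 to 1.31 FPKM in these groups. The summed Langerhans and dendritic cell markers overlapped, at 1488 to 1795 FPKM in epidermis CWO and 1466 to 1642 FPKM in epidermis vehicle. Cd207 overlapped as well, at 53.2 to 59.3 and 45.9 to 53.8 FPKM. Fibroblast markers were lower, at 11.8 to 23.4 FPKM in epidermis CWO and 28.2 to 68.7 FPKM in epidermis vehicle. The part of these markers in the results for Ptges and Ptgds was not tested.

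Ptgds averaged 7.28 ± 2.08 FPKM in epidermis CWO and 12.5 ± 0.678 FPKM in epidermis vehicle (SD, n = 3 each), with each CWO library below each vehicle library. The log2 fold change was -0.74, with a 95% interval from -1.19 to -0.30 (limma adjusted p = 0.113). In 1 fit of all 12 libraries it passed (adjusted p = 0.0287). It was -0.66 with only epidermis vehicle library 3 kept (adjusted p = 0.877) and -0.59 with the muscle covariate (adjusted p = 0.787).

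The other tested members had epidermal log2 fold changes of 0.28 for Hpgd, 0.27 for Ptges3, 0.17 for Ptger3, 0.04 for Ptges2, 0.02 for Ptgs1 and -0.0029 for Ptger4, all with 95% intervals that include 0. The interval for Ptgs1, the most abundant member there, ran from -0.22 to 0.26 and that for Ptger4 from -0.47 to 0.46. Ptgs2 was below the filter, at 0.898 ± 0.163 FPKM in epidermis CWO and 0.577 ± 0.256 FPKM in epidermis vehicle (SD, n = 3 each, exact two-sided permutation p = 0.2). Ptger2 was also below it, at 0.0836 ± 0.0636 FPKM in epidermis CWO and 0.0276 ± 0.0207 FPKM in epidermis vehicle (SD, n = 3 each, exact two-sided permutation p = 0.3). The authors' deposited table for epidermis holds 176 genes, with adjusted p up to 0.00544, and 0 of the 10 members.

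**Figure D4:**
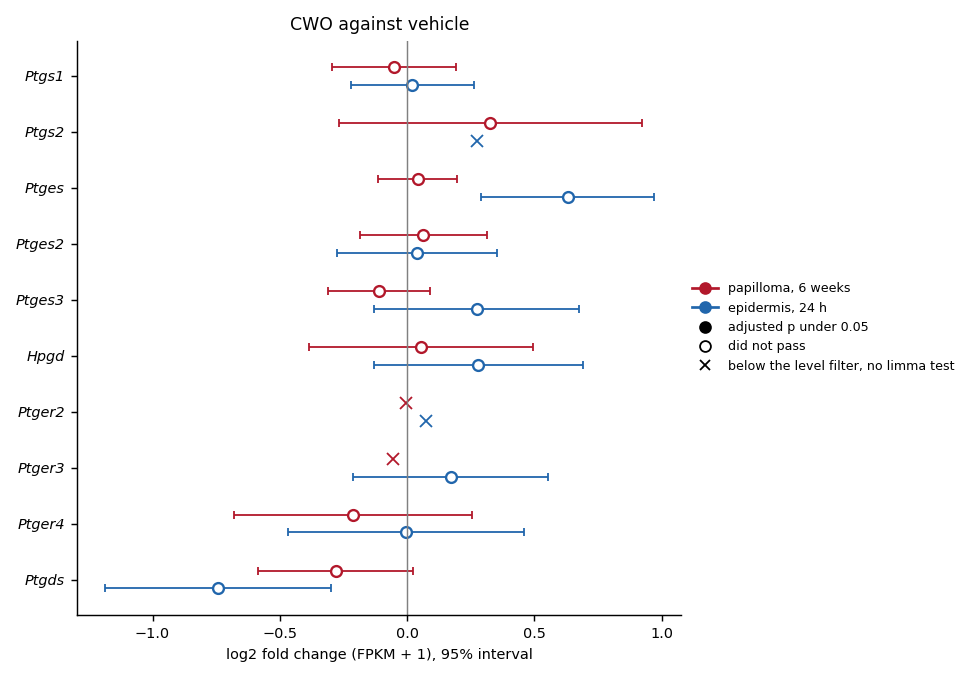
Log2 fold change of CWO over vehicle on FPKM + 1 for each member (horizontal axis), with its 95% interval, in papilloma (upper point) and epidermis (lower point), 3 against 3 libraries in each. Open points did not pass an adjusted p of 0.05, which was so for all tested members in both tissues, and crosses were below the level filter. Ptges at 0.63 and Ptgds at -0.74 in epidermis have intervals that do not reach 0.

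In papilloma 0 of the 8 members tested passed, against 0.00% of 12150 genes, and 0 of the 8 had an unadjusted limma p under 0.05, against 2.52% of all genes. Limma-voom called 0 genes. No member had groups that did not overlap, against 6.60% of all genes. Ptgs2 averaged 19.1 ± 5.56 FPKM in papilloma CWO and 15.1 ± 5.31 FPKM in papilloma vehicle (SD, n = 3 each), a log2 fold change of 0.33 with a 95% interval from -0.27 to 0.92. Ptges was nearly level, at 125 ± 5.32 FPKM in papilloma CWO and 121 ± 3.02 FPKM in papilloma vehicle (SD, n = 3 each), with an interval from -0.11 to 0.20 around 0.04.

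Ptgds averaged 1.31 ± 0.131 FPKM in papilloma CWO and 1.82 ± 0.340 FPKM in papilloma vehicle (SD, n = 3 each), a log2 fold change of -0.28 with an interval from -0.59 to 0.02. Hpgd had a log2 fold change of 0.05 (interval from -0.39 to 0.50), Ptgs1 -0.05 (-0.30 to 0.19), Ptges2 0.06 (-0.18 to 0.31), Ptges3 -0.11 (-0.31 to 0.09) and Ptger4 -0.21 (-0.68 to 0.26). Ptger2 and Ptger3 were below the filter, with exact two-sided permutation p of 0.7 and 0.6. The authors' deposited table for papilloma lists all 10 members with an adjusted p of 1 each, and gives Ptgs2 a log2 fold change of 0.34 and Ptgds -0.56.

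The difference between the CWO effects, papilloma minus epidermis, was tested directly in 1 fit of all 12 libraries. Of 9 members tested 0 passed, against 0.743% of 13192 genes, and limma-voom on recovered fragments called 0 of them. Only Ptges had an unadjusted p under 0.05 by limma, against 9.91% of all genes. Its difference was -0.59, with a 95% interval from -0.95 to -0.23 (limma adjusted p = 0.164), and it passed without epidermis CWO library 3 (-0.72, adjusted p = 0.0265). For Ptgds the difference was 0.46, with an interval from -0.07 to 0.99 (limma adjusted p = 0.586). The tissues also differ in dosing, 1 application against 6 weeks, which cannot be told apart from tissue here.

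Of 55 other genes of prostanoid and related lipid pathways, 44 could be tested between tissues under vehicle. Among them 16 rose, 22 fell and 6 did not pass in papilloma relative to epidermis, with a median log2 fold change of -0.23, against -0.07 for all genes tested. Of all genes tested, 70.1% were called, 31.8% higher and 38.3% lower. Under CWO 14 rose, 18 fell and 12 did not pass, against 68.8% of all genes called, 29.1% higher and 39.7% lower. With only epidermis vehicle library 3 kept, 36 of the 38 genes called under vehicle could be fitted and 32 still passed in the same direction, an alternative added after the data had been seen. These lists were chosen with earlier results of these data known.

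Of 12 tested genes of the wider phospholipase A2 family, 6 were higher, 5 were lower and 1 did not pass under vehicle. In that comparison 31.8% of all genes were higher and 38.3% lower. Among group IV cytosolic phospholipases A2, Pla2g4b averaged 98.9 ± 27.3 FPKM in papilloma vehicle and 2.50 ± 0.284 FPKM in epidermis vehicle, and Pla2g4e 104 ± 13.7 and 4.62 ± 0.788 FPKM in these groups (SD, n = 3 each). Pla2g4d averaged 46.8 ± 9.35 FPKM in papilloma vehicle and 0.00443 ± 0.00768 FPKM in epidermis vehicle (SD, n = 3 each). The log2 fold change was 4.81 for Pla2g4b (limma adjusted p = 3.87e-07), 4.22 for Pla2g4e (adjusted p = 2.1e-07) and 5.56 for Pla2g4d. Pla2g4d passed the level filter through its papilloma libraries alone and so had to differ. Pla2g4a, the group IV enzyme best known for feeding cyclooxygenases, did not pass, at 12.01 ± 0.174 FPKM in papilloma vehicle and 13.9 ± 2.79 FPKM in epidermis vehicle (SD, n = 3 each). The secreted enzyme gene Pla2g2f fell, to 84.9 ± 8.11 FPKM in papilloma vehicle, against 406 ± 67.5 FPKM in epidermis vehicle (SD, n = 3 each, limma adjusted p = 3.28e-06). Pla2g7, whose product cleaves platelet-activating factor, rose 3.42-fold (limma adjusted p = 8.85e-06). Pla2g5 fell by 1.12 on the log2 scale, and it passed the level filter through its epidermis libraries alone and so had to differ. The loci of Pla2g7 and Pla2g5 overlap other listed genes, 1700071M16Rik and Pla2g2a, whose reads cannot be told apart from theirs without strand.

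Of 8 genes tested under vehicle from a list of other prostanoid synthases and reductases, 2 rose, 5 fell and 1 did not pass. The 2 that rose are reductase genes, and whether their products make prostanoids was not tested. In that comparison 31.8% of all genes were higher and 38.3% lower. Akr1b8, an aldo-keto reductase, averaged 93.2 ± 7.14 FPKM in papilloma vehicle and 4.43 ± 1.67 FPKM in epidermis vehicle (SD, n = 3 each, log2 fold change 4.16, limma adjusted p = 1.24e-06), and Cbr3, a carbonyl reductase, rose by 0.84 on the log2 scale. Hpgds, the haematopoietic prostaglandin D synthase, fell together with Ptgds, at 19.8 ± 2.64 FPKM in papilloma vehicle and 33.5 ± 7.77 FPKM in epidermis vehicle (SD, n = 3 each, limma adjusted p = 0.0064). Cbr1, Cbr2, Akr1c18 and 2810405K02Rik fell too, with log2 fold changes of -0.58, -1.78, -0.63 and -0.74, and Akr1c18 did not pass in 1 fit of all 12 libraries (adjusted p = 0.0504). Of 6 other receptor genes only Ptger1 passed the level filter.

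Transport genes were mixed under vehicle. Slco2a1, which takes prostaglandins into cells for breakdown, rose by 0.44 on the log2 scale (limma adjusted p = 0.00497), and did not pass with only epidermis vehicle library 3 kept (0.28, adjusted p = 0.0874). Slco3a1 fell to 15.0 ± 2.34 FPKM in papilloma vehicle, against 58.3 ± 5.25 FPKM in epidermis vehicle (SD, n = 3 each), and Abcc4, which exports prostaglandin E2, fell by 0.31 on the log2 scale. That call for Abcc4 was lost after median-ratio scaling (-0.22, adjusted p = 0.0730), with limma-voom (adjusted p = 0.0695), and without epidermis vehicle library 3 or papilloma vehicle library 1 or 2 (adjusted p of 0.0547, 0.0631 and 0.0923). The reductase genes Ptgr1 and Ptgr2 did not pass, with log2 fold changes of 0.05 and -0.04.

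In the lipoxygenase branch, which uses the same arachidonic acid for leukotrienes and hydroxy acids, 5 genes rose and 6 fell of 12 tested under vehicle. In that comparison 31.8% of all genes were higher and 38.3% lower. Among those that fell, Cysltr1 passed the level filter through its epidermis libraries alone and so had to differ. The 6 called genes with the smallest p were Alox5, Ltc4s, Alox12e, Alox5ap, Alox12b and Alox8. Alox5 fell to 1.93 ± 0.348 FPKM in papilloma vehicle, against 23.4 ± 0.557 FPKM in epidermis vehicle, and Ltc4s, the leukotriene C4 synthase, to 6.56 ± 1.10 FPKM, against 67.8 ± 7.87 FPKM (SD, n = 3 each). Alox12e, the epidermal 12-lipoxygenase, fell to 13.7 ± 6.99 FPKM, against 473 ± 19.1 FPKM, and Alox5ap to 11.3 ± 1.78 FPKM, against 43.0 ± 1.37 FPKM (SD, n = 3 each). The barrier lipoxygenase gene Alox12b rose to 262 ± 47.7 FPKM, against 74.6 ± 11.9 FPKM, and Alox8 to 16.1 ± 6.68 FPKM, against 2.24 ± 1.32 FPKM (SD, n = 3 each). Of 6 chaperone genes listed as partners of p23, Hsp90 genes among them, 2 rose and 3 fell under vehicle. The shares of all genes there were 31.8% higher and 38.3% lower. Hsp90aa1 and Hspa8 rose by 0.97 and 0.89 on the log2 scale, and Hsp90ab1, Fkbp4 and Ahsa1 fell by 0.44, 1.36 and 0.29. The call for Ahsa1 was lost after median-ratio scaling (-0.19, adjusted p = 0.125), with limma-voom (adjusted p = 0.115), with only epidermis vehicle library 3 kept (adjusted p = 0.121), and without epidermis vehicle library 2 or papilloma vehicle library 3 (adjusted p of 0.0761 and 0.0888).

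**Figure D5:**
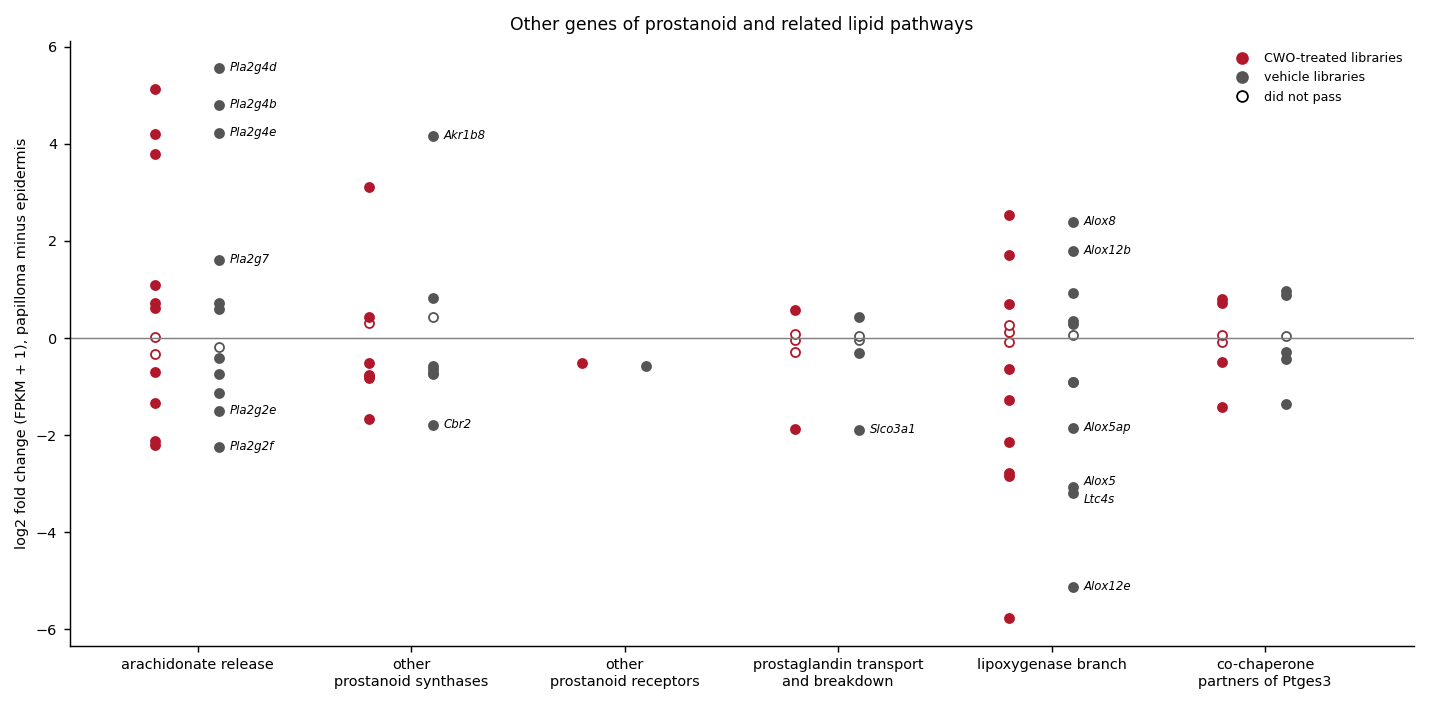
Log2 fold change of papilloma over epidermis on FPKM + 1 (vertical axis) for the tested genes of 6 pathway lists, with CWO-treated libraries left of vehicle libraries in each list. Filled points passed an adjusted p of 0.05 and open points did not, and genes beyond 1.5 in either direction under vehicle are named. Pla2g4d, Pla2g4b, Pla2g4e and Akr1b8 lie highest and Alox12e lowest.

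CWO against vehicle moved 1 of 43 of these genes in epidermis, where 6 had an unadjusted limma p under 0.05. Both are near the shares of all genes, 2.00% called and 14.7% with such a p. Pla2g7 rose to 9.65 ± 0.508 FPKM in epidermis CWO, against 5.53 ± 0.786 FPKM in epidermis vehicle (SD, n = 3 each, log2 fold change 0.71, limma adjusted p = 0.0392). That call for Pla2g7 was lost with only epidermis vehicle library 3 kept (0.56, adjusted p = 0.622), with the muscle covariate (0.61, adjusted p = 0.519) and with no filter (adjusted p = 0.104). It was also lost without any single library other than epidermis vehicle library 3, with adjusted p of 0.0817 to 0.181. Over all alternatives the adjusted p ranged from 0.00376 to 0.622. In papilloma 0 of 42 passed, with 1 at an unadjusted limma p under 0.05, against 0.00% and 2.52% of all genes. Alox15, below the filter, averaged 0.257 ± 0.121 FPKM in papilloma CWO and 1.71 ± 0.818 FPKM in papilloma vehicle (SD, n = 3 each). Its groups did not overlap (exact two-sided permutation p = 0.1, the smallest possible). The authors' deposited DESeq comparison gives Alox15 a log2 fold change of -2.70 with an adjusted p of 0.604. For the difference between tissues 0 of 44 passed, with 3 at an unadjusted limma p under 0.05, against 0.743% and 9.91% of all genes.

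Genes with levels most like those of 3 members over the 12 libraries were ranked by the root mean square difference of log2(FPKM + 1) after centring each gene on its mean, among 12533 genes. Nearest to Ptgs2 were Ankk1 (0.243), Casp14 (0.271), Tcf23 (0.272), Cdhr1 (0.285) and Pi15 (0.286), where Ptgs2 itself varied by 1.70 around its mean. Nearest to Hpgd were 2010109K11Rik (0.170), Lass3 (0.171), Entpd7 (0.185), Ugcg (0.186) and Arl5b (0.205), with 0.943 for Hpgd itself. Nearest to Ptgds were Krt24 (0.211), Ramp1 (0.232), C130079G13Rik (0.232), Foxo6 (0.233) and Cd59a (0.234), with 1.07 for Ptgds itself. The 12 libraries fall into tissues, so a likeness mainly reflects a tissue difference of the same size.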

How the data were processed

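RNA from 12 mouse libraries, 3 per group, was sequenced on TruSeq libraries of unstated strand. The submitters' processing notes name bcl2fastq 1.8.4, TopHat2 2.0.4, mm9, Cufflinks 2.0.2 and DESeq. Each deposited library file holds FPKM with an interval, per the file headers. Both deposited comparison tables hold the authors' mean normalised count of each group (a signal value), their ratio (fold change) and log2 ratio, and the p-value before and after adjustment.

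Here, rows of 1 symbol were summed (248 symbols), values were dropped where the Cufflinks status was not OK, and 734 short non-coding genes were not tested. The filter kept genes with FPKM 1 or more in 3 or more fitted libraries and 2 or more values per group. limma 3.58.1 (R 4.3.3) was run with a mean-variance trend on log2(FPKM + 1), two-sided, with Benjamini-Hochberg adjustment over all genes kept and a threshold of 0.05. Members below the filter had an exact permutation test. Fragments were recovered from FPKM and its interval, taken as 2 standard deviations of a count. Below 500 fragments, 68.2% to 69.5% of a library's recovered values lay within 0.02 of a whole number. The fits were tested on simulated data. All members were named. For the vehicle comparison of tissues and for CWO in epidermis, each called gene of a pathway list was named where a list had at most 6, otherwise the 6 with the smallest p. The difference of Ptger1 between tissues is not reported here. Pla2g4a, Hpgds, Ptgr1, Ptgr2, Cysltr1 and Alox15 were named after their values were seen. Members, lists and tests were chosen with earlier results of these data known. Alternatives were other pseudocounts (0.1 and 3), other filters, median-ratio scaling, all statuses kept, limma-voom, a replicate block, 1 fit of all libraries, each library left out, only epidermis vehicle library 3 kept and a muscle covariate.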

Additional observations from a re-analysis of the deposited data

How the results depend on the processing

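Of 832 member values under alternatives, 782 kept their direction and side of the threshold, 5 lost a call (all Ptges3 between tissues under vehicle), 7 gained one and 38 changed sign, 0 of them where the value had been called. Members below the level filter had no adjusted p and were counted as not called. For these, chiefly Ptger2, Ptgs2 in epidermis and Ptger3 in papilloma, mostly the direction alone was compared, so the 782 overstates how many calls were checked. The gained calls are those given above for Ptges, Ptgds and Ptger2. The cause of the changes of sign was not tested. In epidermis these were Ptgs1 with limma-voom (-0.0015), and over single libraries left out Ptgs1 (-0.0332 to 0.0656), Ptges2 (-0.0355 to 0.142) and Ptger4 (-0.140 to 0.180). In papilloma they were Ptger2 with median-ratio scaling (0.00268), Ptgs1, Hpgd and Ptger4 with the muscle covariate (0.0887, -0.0703 and 0.0657), and over single libraries left out Ptgs1 (-0.164 to 0.0227), Ptges2 (-0.0211 to 0.134), Hpgd (-0.170 to 0.225), Ptger2 (-0.0390 to 0.0338), Ptger3 (-0.130 to 0.0308) and Ptger4 (-0.370 to 0.0293). Between tissues under CWO Ptges3 gave 0.0761 with median-ratio scaling, 0.0782 with limma-voom and -0.193 to 0.155 over single libraries left out. For the difference of CWO effects Ptgs2 gave -0.270 with a pseudocount of 0.1 and -0.170 with limma-voom, and Ptger4 0.157 with only epidermis vehicle library 3 kept. Over single libraries left out that difference was -0.163 to 0.305 for Ptgs2, -0.185 to 0.00169 for Ptgs1, -0.0773 to 0.09998 for Ptges2 and -0.392 to 0.0322 for Ptger4. Of all genes, CWO called 246 in epidermis, but 43 with no filter, 44 with the replicate block, 655 in 1 fit of all 12 libraries, 12 with only epidermis vehicle library 3 kept, 9 with the muscle covariate, and 56 (without epidermis CWO library 1) to 676 (without epidermis vehicle library 3) over single libraries left out. In papilloma it called 0, but 4 with the block and 1 in the fit of all libraries. The difference called 98, but 63 with no filter, 25 with the block, 17 with only epidermis vehicle library 3 kept, and 34 (without epidermis CWO library 1) to 328 (without epidermis vehicle library 3) over single libraries left out. Between tissues the count held within 1.5 times. Libraries with the same replicate number did not deviate together (correlations of 0.025, -0.443 and -0.359 in epidermis and 0.277, 0.139 and 0.024 in papilloma), so the block has no basis in the design. The block changed no member's call, and Pla2g7 in epidermis did not pass with it (adjusted p = 0.126), nor did Abcc4 between tissues under vehicle (adjusted p = 0.0766). Of the 38 other pathway genes called between tissues under vehicle and the 32 under CWO, 0 changed sign under the alternatives where they could be fitted, which for these genes were added after the data had been seen. Depth limits Ptger2, Ptger3 and Ptgds, which rest on few fragments where they are low, and intervals cover the spread of 3 libraries. Ptger3 and Ptgs2 were not tested where a library left out took them below the filter.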
